A study of Mus musculus with 59 samples.

Results

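The 10 genes Dcx, Sox11, Igfbpl1, Calb2, Neurod1, Eomes, Mki67, Top2a, Sox4 and Draxin, which serve in the brain as markers of dividing progenitors and newborn neurons, were taken by symbol from a table of raw read counts with 57180 gene rows, in all tissues and genotypes. Each symbol matched 1 row. Poly(A) RNA-seq libraries were made from 30 male mice, 29 of which gave both cortex and hippocampus. The labels name 4 genotypes: wild type for Mrpl40 and Slc25a1 (9 cortex and 8 hippocampus libraries), Slc25a1 -/+ (Slc25a1 het, 7 and 7), Mrpl40 -/+ (Mrpl40 het, 7 and 7) and both genes -/+ (double het, 7 and 7). The product of Slc25a1 carries citrate across the inner mitochondrial membrane, and that of Mrpl40 belongs to the mitochondrial ribosome. The labels give no age and no treatment.

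In the adult rodent hippocampus, granule neurons continue to be born in the dentate gyrus. Radial glia-like stem cells give rise to dividing intermediate progenitors, these become neuroblasts and immature neurons, and the immature neurons mature into granule cells. Each of the 10 genes is known for one or more of these steps, and several of them are also used by other neurons, so that a level in whole tissue need not come from new granule cells. In bulk tissue, fewer cells of a type and less RNA per cell cannot be told apart.

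Library totals ranged from 21443017 to 32120906 counts. Slc25a1 lay on a low level (10.8 to 13.0 CPM, the count scaled to the total of its library, in cortex) or a high level (20.9 to 26.2 CPM) in every library, with 10.8 to 12.9 and 21.1 to 27.4 CPM in hippocampus, and it went against the label in 6 animals, so genotypes below are those on the labels. Those 6 animals were wild-type replicates 6 and 7, Slc25a1 het replicates 3 and 4, and double het replicates 5 and 6. Mrpl40 had group means of 17.4 to 17.9 CPM in cortex and 15.2 to 16.0 CPM in hippocampus, so its level does not tell the labelled genotypes apart. Dissection was checked with marker genes: Prox1, a transcription factor of granule cells, had 10.7 to 15.3 CPM in cortex and 141 to 310 CPM in hippocampus. Hippocampus of Slc25a1 het replicate 3 held 324 CPM of the cerebellar granule cell genes Gabra6, Cbln3 and Fat2 together, against 4.23 CPM in Slc25a1 het replicate 5 and 7.29 CPM in double het replicate 7, the other two hippocampus libraries above 4 times the median. Wild-type hippocampus replicate 8 had the highest sum of 7 neocortex marker genes in that tissue (265 CPM, median 188 CPM over hippocampus libraries).

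The first question was where the 10 genes are expressed. In wild type, 8 of them were higher in hippocampus than in cortex of the same animals (Igfbpl1, Eomes, Draxin, Mki67, Calb2, Top2a, Neurod1 and Sox11), and Dcx and Sox4 were lower. All 10 passed the paired test of edgeR at an adjusted p under 0.05, where 30.4% of 21351 genes tested were called higher and 30.1% lower, so that a call alone is common for any gene. The folds ranged from 68.6 times for Igfbpl1 to 1.84 times for Sox11 among the higher genes. Igfbpl1, Eomes and Draxin passed the filter on low counts only through hippocampus, so a difference in them was to be found once they were tested. Of the 7 genes that passed it in each tissue alone, 5 were higher and 2 lower. How many of all genes lie apart between the tissues, or go the same way in all animals, was not counted. Such statements below describe the 10 genes and do not set them apart from other genes.

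**Figure D1:**
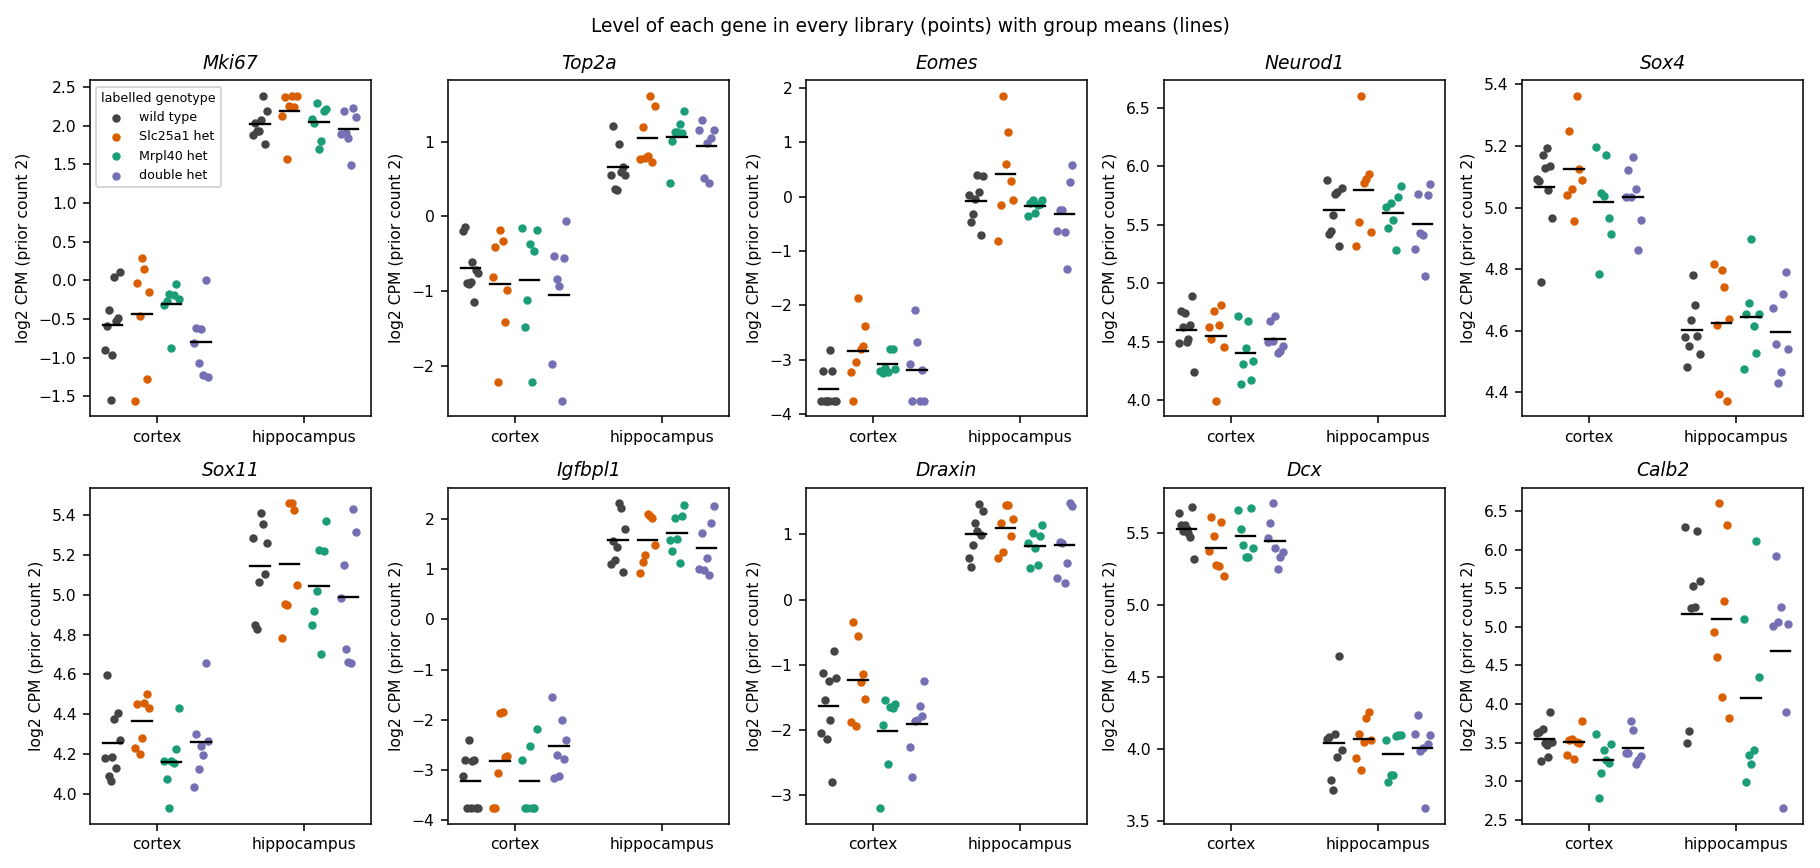
Level of each gene as log2 CPM (prior count 2) in every library (points), by tissue and labelled genotype (colour), with the mean of each group as a line. Hippocampus lies above cortex in all libraries for 7 genes, Dcx lies lower in hippocampus in all libraries, and Calb2 and Sox4 overlap between the tissues. The share of all genes without overlap was not counted.

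Compared per kilobase of exon in wild-type hippocampus, Calb2 (24.9 ± 14.3 CPM per kb, SD, n = 8) and Neurod1 (18.2 ± 2.64) stood highest, and their ranges overlapped. Sox4 (5.06 ± 0.343) and Sox11 (4.29 ± 0.640) followed, also with overlapping ranges. Dcx had 1.32 ± 0.289 and Igfbpl1 0.941 ± 0.353 CPM per kb. Mki67 (0.40 ± 0.0572), Draxin (0.380 ± 0.0897), Eomes (0.217 ± 0.0614) and Top2a (0.17 ± 0.0394) were lowest, and each overlapped its neighbour in this order. In wild-type cortex the order was Neurod1 (8.94 ± 1.16 CPM per kb, n = 9), Sox4 (6.99 ± 0.605), Calb2 (6.69 ± 0.919), Dcx (3.66 ± 0.257) and Sox11 (2.30 ± 0.294), and the other five genes had at most 0.0993 CPM per kb in any of the libraries. Dcx thus stood above Sox11 per length in cortex and below it in hippocampus, in every wild-type library of each tissue.

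Mki67 encodes a protein that coats mitotic chromosomes and is a common marker of cycling cells. In wild-type hippocampus it ranged from 3.33 to 5.14 CPM (median 3.88, n = 8) and in wild-type cortex from 0.268 to 0.999 CPM (median 0.620, n = 9). The lowest hippocampus library of any genotype (2.73 CPM) was above the highest cortex library (1.14 CPM). The log2 fold change in wild type was 2.63 ± 0.16 (SE, adjusted p = 4.3e-16, edgeR), and Mki67 was higher in hippocampus in 29 of 29 animals. Top2a, the topoisomerase that untangles DNA in dividing cells, ranged from 1.2 to 2.24 CPM in wild-type hippocampus (median 1.42) and from 0.379 to 0.836 CPM in wild-type cortex (median 0.520). Its tissues did not overlap either, and its log2 fold change was 1.52 ± 0.24 (adjusted p = 1.2e-06, edgeR). Cortex counts were low, with 7 to 34 reads of Mki67 and 3 to 24 of Top2a per library, so that single cortex values carry a wide counting error.

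The promoters of both genes are shown because both were higher in hippocampus and because elements of cell cycle promoters can be read in them. The 250 bases before the RefSeq start site are given (build GRCm38.p6, minus strand, chr7:135716380-135716629 for Mki67 and chr11:99024190-99024439 for Top2a), with matches on either strand to TTTGAA, the cell cycle homology element, and to CCAAT in capitals. No match of one overlapped a match of the other.
Mki67: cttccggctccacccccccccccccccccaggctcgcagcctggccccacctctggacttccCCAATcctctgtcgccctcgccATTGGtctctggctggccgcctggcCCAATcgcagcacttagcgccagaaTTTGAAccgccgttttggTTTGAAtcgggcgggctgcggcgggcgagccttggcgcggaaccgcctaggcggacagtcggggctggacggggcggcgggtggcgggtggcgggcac
Top2a: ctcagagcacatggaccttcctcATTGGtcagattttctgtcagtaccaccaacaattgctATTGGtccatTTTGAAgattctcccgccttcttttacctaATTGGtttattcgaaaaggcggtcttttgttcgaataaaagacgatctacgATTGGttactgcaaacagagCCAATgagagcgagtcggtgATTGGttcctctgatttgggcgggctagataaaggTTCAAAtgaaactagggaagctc
The Mki67 window holds 2 matches to TTTGAA and 3 to CCAAT, and the Top2a window 2 and 6. Of 32851 RefSeq windows of 250 bases, 16% hold TTTGAA, 33.8% CCAAT, 5.55% both, and 2.79% at least 3 matches to CCAAT. The elements are not particular to Mki67 and Top2a. The Sox11 window also holds both, with 1 match to TTTGAA and 1 to CCAAT. The window of Sox4, which was lower in hippocampus, holds 4 matches to CCAAT and 0 to TTTGAA. Eomes has 2 matches to CCAAT, Dcx 1 or 0 by start site, and both have 0 to TTTGAA. Neurod1 and Draxin have 0 matches to either. A match is a description of these letters and not a shown binding site.

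Other cell cycle genes differed less uniformly. Of 34 genes of cell division and DNA replication, 32 were tested in wild type, 17 were higher in hippocampus, 5 were lower and 10 did not pass, with a median log2 fold change of 0.36. Of all 21351 genes tested, 30.4% were higher and 30.1% lower, shares that also stand beside the lists below. Mcm6, a subunit of the replicative helicase, was higher by 2.74 ± 0.13 on the log2 scale, Cenpf, a kinetochore protein, by 1.86 ± 0.19, and Tyms, which makes thymidylate, by 1.01 ± 0.12. The 5 lower genes were Hmmr (-0.89 ± 0.27), Ccnb2 (-0.62 ± 0.16), Cdc20 (-0.53 ± 0.23), Prc1 (-0.23 ± 0.08) and Ccne1 (-0.14 ± 0.05). The summed level of the 34 genes was 121 to 135 CPM over cortex libraries and 153 to 190 CPM over hippocampus libraries, without overlap.

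Eomes (also called Tbr2) is a T-box transcription factor of intermediate progenitors. It was near the limit of counting in cortex, where 10 of 30 libraries had no read and no library had more than 6. In wild-type hippocampus it ranged from 0.539 CPM in replicate 8 to 1.25 CPM in replicate 6 (median 0.918). Summed over wild-type libraries there were 183 reads in hippocampus and 4 in cortex, a ratio of CPM of 56.1 with a 95% counting interval of 21.5 to 208, which covers counting error only. The fitted log2 fold change was 5.35 ± 0.43 (adjusted p = 6.1e-13, edgeR). Eomes passed the filter only through hippocampus, so this p-value is no added support for the difference.

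Neurod1 is a basic helix-loop-helix transcription factor needed for newborn granule cells to survive and mature. It was well expressed in both tissues, with 39.9 to 58.9 CPM in wild-type hippocampus (median 51.1) and 18.9 to 29.6 CPM in wild-type cortex (median 24.6). The tissues did not overlap in any genotype, since the lowest hippocampus library had 33.3 CPM. The wild-type log2 fold change was 1.01 ± 0.13 (adjusted p = 1.1e-07, edgeR), and Neurod1 was higher in hippocampus in 29 of 29 animals.

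Among 12 other genes of intermediate progenitors and neuroblasts, 5 were higher in wild-type hippocampus and 6 were lower, with a median log2 fold change of -0.05. Mfap4, a matrix protein, was higher by 2.14 ± 0.20 on the log2 scale, while Tac2, which encodes neurokinin B, differed by -1.96 ± 0.15 and Cdk5r1, which encodes an activator of Cdk5, by -0.49 ± 0.04. Markers of the radial glia-like stem cell, many of which astrocytes share, were higher for 9 of 16 tested genes and lower for 3. Hopx was higher by 1.63 ± 0.07, Gfap by 2.81 ± 0.16 and the Notch-pathway repressor Id4 by 0.64 ± 0.07.

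Sox4 and Sox11 are related transcription factors of the SoxC group that act in newly committed neurons, and they went opposite ways. Sox11 had 28.3 to 42.5 CPM in wild-type hippocampus (median 36.3) and 16.6 to 24.1 CPM in wild-type cortex (median 18.1), a log2 fold change of 0.88 ± 0.07 (adjusted p = 5.5e-12, edgeR). Sox4 had 22.3 to 27.4 CPM in wild-type hippocampus (median 23.9) and 27.0 to 36.5 CPM in wild-type cortex (median 34.1), a log2 fold change of -0.46 ± 0.06 (adjusted p = 1.8e-07, edgeR). Sox11 was higher in hippocampus in 29 of 29 animals and Sox4 lower in 29 of 29. Over all libraries Sox11 only just did not overlap, with 25.16 CPM in both the lowest hippocampus and the highest cortex library, and Sox4 overlapped.

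Igfbpl1 encodes a secreted protein related to the insulin-like growth factor binding proteins and marks newborn neurons. It had 1.85 to 4.89 CPM in wild-type hippocampus (median 2.74) and at most 0.115 CPM in wild-type cortex. In cortex 10 of 30 libraries had no read. Wild-type sums were 631 reads in hippocampus and 10 in cortex, a ratio of CPM of 77.4 (95% counting interval 41.8 to 162). The fitted log2 fold change of 6.10 ± 0.35 (adjusted p = 1.8e-16, edgeR) was the largest of the 10 genes. Draxin, a secreted repulsive guidance cue for axons, had 1.34 to 2.68 CPM in wild-type hippocampus (median 1.96) and 0.0689 to 0.502 CPM in wild-type cortex (median 0.270), a log2 fold change of 2.76 ± 0.23 (adjusted p = 7.6e-13, edgeR). Neither gene overlapped between the tissues in any genotype. Igfbpl1 and Draxin passed the filter only through hippocampus, so their p-values are no added support for the difference.

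Dcx encodes doublecortin, a microtubule-associated protein of migrating and immature neurons and the most used marker of adult neurogenesis. Its level was lower in hippocampus than in cortex. Wild-type hippocampus had 13.0 to 24.9 CPM (median 16.3) and wild-type cortex 39.9 to 51.2 CPM (median 46.1). The highest hippocampus library, replicate 8, stood apart from the next (17.1 CPM) and was still below the lowest cortex library of any genotype (36.8 CPM). The log2 fold change was -1.48 ± 0.07 (adjusted p = 4.6e-18, edgeR), the smallest p of the 10 genes, and Dcx was lower in hippocampus in 29 of 29 animals.

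Calb2 encodes calretinin, a calcium-binding protein made for a time by newborn granule cells and also by interneurons and, in the mouse, by mossy cells. Of the 10 genes it varied most between hippocampus libraries, from 6.19 to 97.2 CPM, with a coefficient of variation of 70.7% (61.0% for Eomes, the next) against 15.4% in cortex (6.80 to 14.8 CPM). Wild-type hippocampus libraries 3 and 4 had 11.2 and 12.5 CPM and the other six 37.9 to 78.0 CPM, so that the lowest wild-type libraries lay within the cortex range and the others above it. Calb2 was higher in hippocampus in 26 of 29 animals. The log2 fold change was 1.71 ± 0.36 in wild type (adjusted p = 0.00019, edgeR) and 0.87 ± 0.40 in Mrpl40 het (adjusted p = 0.065), the only case of a gene and a genotype that did not pass. Without the animal as a block, that value was 1.25 with an adjusted p of 0.010.

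**Figure D2:**
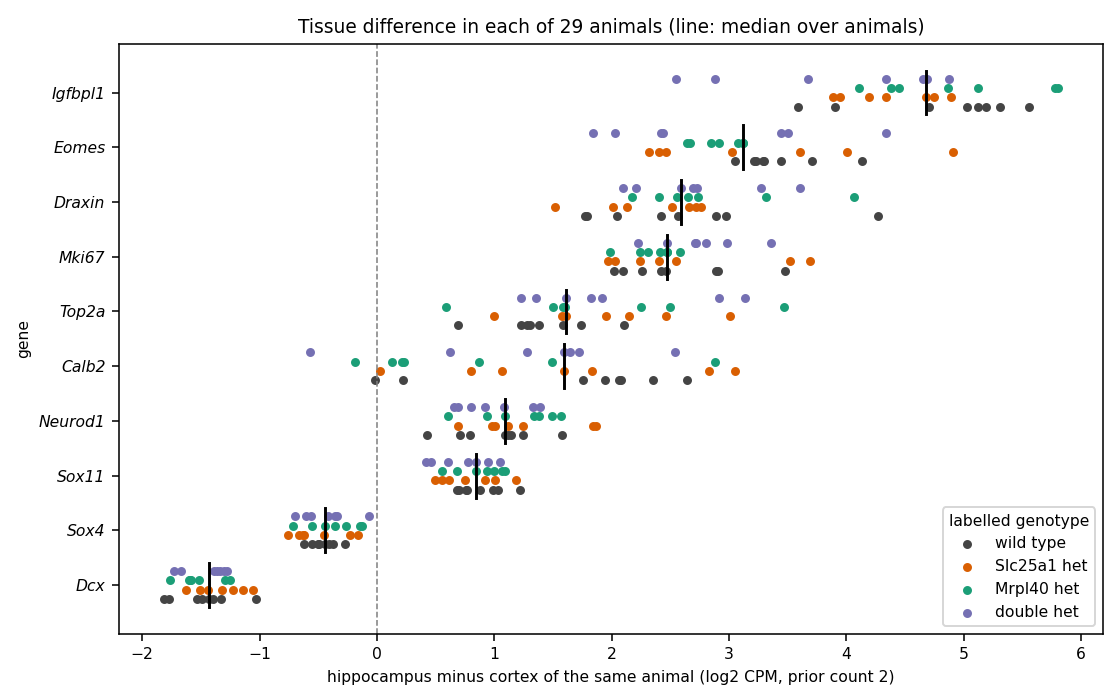
Hippocampus minus cortex of the same animal in log2 CPM (prior count 2) for each gene, 1 point per animal coloured by labelled genotype, with the median over 29 animals as a line. Dcx and Sox4 lie below 0 and 7 genes above 0 in all animals, and Calb2 crosses 0. The share of all genes that do so was not counted.

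The tissue differences kept their direction in each genotype. In Slc25a1 het all 10 genes passed (30.5% of all genes higher, 29.9% lower), in double het all 10 (28.9% and 28.6%) and in Mrpl40 het 9 of 10 (30.8% and 29.4%). Igfbpl1, Eomes and Draxin are in these counts only through hippocampus. The Dcx log2 fold change was -1.34 ± 0.07, -1.52 ± 0.08 and -1.44 ± 0.08 for the Slc25a1, Mrpl40 and double het groups. The Igfbpl1 value was 5.05 ± 0.33, 6.07 ± 0.36 and 4.56 ± 0.33 in the same order, resting on 17, 9 and 20 cortex reads per group. Whether these differ by genotype was tested directly as the tissue difference of a genotype's effect. In edgeR 0 of 10 genes passed for Slc25a1 het (0% of all genes called), 0 of 10 for Mrpl40 het (0%) and 0 of 10 for double het (0.0234%). At an unadjusted p under 0.05 the counts were 0, 0 and 1, the last being Igfbpl1 (-1.54 ± 0.71, adjusted p = 0.98), beside 1279, 1245 and 1073 of all 21351 genes. The DESeq2 Wald test called 0 of the 10 in each, beside 0, 0 and 15 of all 21351 genes.

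Immature neuron genes as a list went in both directions. Of 18 such genes other than the 10, 9 were higher in wild-type hippocampus, 7 were lower and 2 did not pass, with a median log2 fold change of 0.13. Fxyd7, a regulator of the sodium pump, differed by -1.61 ± 0.07 and Stmn4, a stathmin-family microtubule regulator, by -0.91 ± 0.05, both lower in hippocampus. Tubb2b, a neuronal tubulin, was higher by 0.70 ± 0.04. Genes of mature dentate granule cells were higher for 13 of 14 and lower for 1, with a median log2 fold change of 1.62, among them Tdo2 (4.95 ± 0.14), Lct (6.17 ± 0.16) and Dsp (8.14 ± 0.21). Of 18 tested growth factor and signalling genes with a known role in the niche, 8 were higher and 6 lower, with Notch2 higher by 1.36 ± 0.07, the chemokine receptor gene Cxcr4 higher by 2.52 ± 0.18 and Nog, a BMP antagonist, lower (-1.31 ± 0.08).

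The second question, which the design poses, was whether loss of 1 copy of Slc25a1, of Mrpl40 or of both changed these genes. By edgeR none of the 10 passed in hippocampus in any of 6 comparisons, and none of the 7 tested in cortex (Igfbpl1, Eomes and Draxin were below the cortex filter). Few genes of any kind passed by edgeR. In hippocampus 0% of 20162 genes were called for Slc25a1 het against wild type, 0.00496% for Mrpl40 het, 0.00992% for double het, 0% for double het against either single het and 0% for the interaction of both alleles. In cortex the shares of 20394 genes were 0%, 0.0294% and 0.0686% against wild type in the same order, 0.0588% for double het against Slc25a1 het, 0.0049% against Mrpl40 het and 0% for the interaction. At an unadjusted p under 0.05, edgeR gave 2, 1 and 0 of the 10 genes against wild type in hippocampus, 3 and 0 for double het against Slc25a1 het and Mrpl40 het, and 1 for the interaction. Over all 20162 genes, 1567, 1651 and 1064 reached it against wild type, 1822 and 943 against the single hets, and 683 for the interaction. In cortex 1 of 7 reached it, in Mrpl40 het against wild type, and 1416 of all 20394. The DESeq2 Wald test also called 0 of the 10 genes in every comparison. Over all genes it called 0 to 14 of 20162 in hippocampus and 0 to 111 of 20394 in cortex. The 111 were for double het against wild type, where edgeR called 14. Among the other genes of the 6 lists of division, stem cells, progenitors, immature neurons, granule cells and niche signals, edgeR called 0 of 109 tested in hippocampus and 0 of 105 in cortex in each comparison. At an unadjusted p under 0.05 there were 2 to 17 of them in hippocampus, the highest count in double het against Slc25a1 het (15.6% of the 109, beside 1822 of all 20162 genes), and 1 to 11 in cortex, again highest in that comparison (10.5% of the 105, beside 2023 of all 20394). The summed level of 14 mature granule cell genes, which moves with several of the 10 genes between animals, had a hippocampus median of 2008 CPM in wild type, and of 2051, 1938 and 1705 CPM for the Slc25a1, Mrpl40 and double het groups, with overlapping ranges.

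Top2a came nearest among the dividing-cell genes. Its hippocampus levels ranged over 1.2 to 2.24 CPM in wild type (median 1.42), 1.59 to 3.01 CPM in Slc25a1 het (median 1.68), 1.29 to 2.59 CPM in Mrpl40 het (median 2.11) and 1.29 to 2.37 CPM in double het (median 2.01). All 4 groups overlapped. The log2 differences from wild type were 0.44 ± 0.17 in Slc25a1 het (adjusted p = 0.58, edgeR), 0.42 ± 0.17 in Mrpl40 het (adjusted p = 0.59) and 0.29 ± 0.17 in double het (adjusted p = 0.99). These comparisons share the wild-type libraries. The interaction was -0.56 ± 0.24 (adjusted p = 0.999). Mki67 did not show the same values: its differences from wild type were 0.19 ± 0.12, 0.02 ± 0.12 and -0.07 ± 0.12 in the same order, with 95% intervals inside -0.31 to 0.43. Without the 6 animals whose Slc25a1 level went against the label, the Slc25a1 het differences were 0.36 ± 0.11 for Mki67 (adjusted p = 0.776) and 0.58 ± 0.20 for Top2a (adjusted p = 0.776), and neither passed.

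Eomes had 0.494 to 3.55 CPM in Slc25a1 het hippocampus (median 1.14) and 0.322 to 1.42 CPM in double het (median 0.766). The log2 difference between them was -0.92 ± 0.31 (adjusted p = 0.43, edgeR), the smallest unadjusted p of the 10 genes in a genotype comparison. In that comparison all 10 genes lay below 0, with a median of -0.20 against -0.0090 over all genes tested. The highest Eomes library was Slc25a1 het replicate 3, the one with the cerebellar genes, which also had the highest Neurod1 (97.3 CPM, next 61.2) and Calb2 (97.2 CPM) of all hippocampus libraries. Its Slc25a1 was on the high level, against its label (23.9 CPM). Without the 3 libraries with high markers the Eomes difference was -0.47 ± 0.26 (adjusted p = 0.62), and its difference between Slc25a1 het and wild type went from 0.75 ± 0.30 (adjusted p = 0.59) to 0.09 ± 0.24. The Neurod1 difference between Slc25a1 het and wild type went from 0.22 ± 0.15 to 0.00 ± 0.12. The part of cerebellar RNA in the level of that library was not tested.

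Of the remaining genes, Dcx had hippocampus means of 16.7 ± 3.66 CPM (SD, n = 8) in wild type, and 16.8 ± 1.66, 15.6 ± 1.62 and 16.1 ± 2.10 CPM for the Slc25a1, Mrpl40 and double het groups (n = 7 each). Its 95% intervals against wild type lay inside a log2 difference of -0.32 to 0.22. Without wild-type replicate 8, the Dcx difference was 0.0011 for Mrpl40 het and 0.052 for double het, where it had been -0.11 and -0.06, and its wild-type tissue difference was -1.54. Sox4, with means of 24.2 to 25.0 CPM, had the narrowest intervals, inside -0.15 to 0.18. The widest were those of Calb2, whose means were 43.5 ± 24.9, 43.3 ± 32.5, 23.1 ± 22.4 and 31.1 ± 17.3 CPM in the same order, and whose difference in Mrpl40 het was -0.92 ± 0.55 with an interval from -2.0 to 0.21. Sox11, Igfbpl1 and Draxin differed from wild type by at most 0.20 on the log2 scale, with standard errors of 0.13 to 0.25. For Igfbpl1 the 95% interval in double het reached from -0.65 to 0.37, so a change within it was not detectable with this spread and number of animals.

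**Figure D3:**
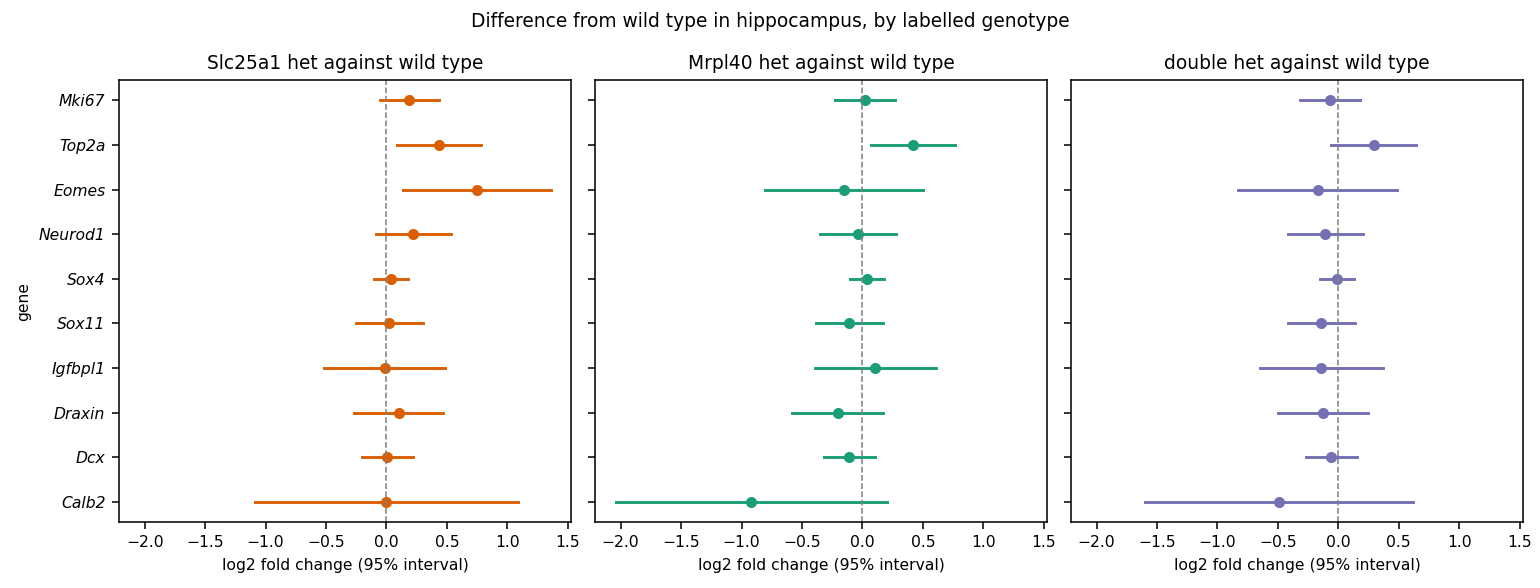
Log2 fold change against wild type in hippocampus (points) with 95% intervals (lines) for each labelled heterozygous genotype, which share the wild-type libraries. The intervals are narrow for Sox4 and Dcx and wide for Calb2; those of Top2a in both single hets and of Eomes in Slc25a1 het leave out 0, and no gene passed the adjusted test.

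In cortex, Calb2 in Mrpl40 het was the only gene with an unadjusted p under 0.05. It had 6.80 to 12.1 CPM there (median 9.63) and 9.52 to 14.8 CPM in wild type (median 11.3), a log2 difference of -0.26 ± 0.10 (adjusted p = 0.62, edgeR), and the groups overlapped. Cortex Mki67 had means of 0.630 ± 0.236 CPM in wild type (SD, n = 9), and 0.737 ± 0.335, 0.747 ± 0.133 and 0.526 ± 0.203 CPM for the Slc25a1, Mrpl40 and double het groups (n = 7 each), and no difference passed.

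The third question was which of the genes vary together between animals. Deviations of log2 CPM from the labelled genotype mean were correlated over the 29 hippocampus libraries, with permutation p-values adjusted over the 45 pairs. At an adjusted p under 0.05, 14 pairs correlated positively and 1 negatively. Sox11, Igfbpl1 and Draxin varied together: Sox11 with Igfbpl1 had r = 0.82 (rho = 0.81, permutation p = 1e-05, the smallest that the permutations can give, adjusted p = 0.000225, r = 0.80 without the 2 libraries farthest from the median). Igfbpl1 with Draxin had r = 0.72 (rho = 0.70, permutation p = 3e-05, adjusted p = 0.000338, r = 0.72 without 2) and Sox11 with Draxin r = 0.71 (rho = 0.70, permutation p = 3e-05, adjusted p = 0.000338, r = 0.64 without 2). Mki67 went with Igfbpl1 (r = 0.65, rho = 0.69, permutation p = 0.00011, adjusted p = 0.00099, r = 0.68 without 2) and Draxin (r = 0.64, rho = 0.74, permutation p = 0.00022, adjusted p = 0.0017, r = 0.64 without 2). Sox11 went with Mki67 as well (r = 0.51, rho = 0.57, permutation p = 0.0050, adjusted p = 0.017, r = 0.45 without 2).

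Neurod1 and Eomes had the highest correlation of all pairs, r = 0.88 (rho = 0.84, permutation p = 1e-05, adjusted p = 0.000225). It was 0.80 without the 2 farthest libraries and 0.81 without the 3 libraries with high markers, so it did not rest on the library with cerebellar genes. Both also correlated with genes named above. Neurod1 went with Igfbpl1 (r = 0.58, rho = 0.65, permutation p = 0.00068, adjusted p = 0.0044, r = 0.55 without 2) and Sox11 (r = 0.57, rho = 0.69, permutation p = 0.00092, adjusted p = 0.0052, r = 0.52 without 2). Eomes went with Igfbpl1 (r = 0.56, rho = 0.65, permutation p = 0.0011, adjusted p = 0.0056, r = 0.48 without 2), Sox11 (r = 0.53, rho = 0.65, permutation p = 0.0025, adjusted p = 0.010, r = 0.45 without 2) and Draxin (r = 0.45, rho = 0.58, permutation p = 0.015, adjusted p = 0.046, r = 0.62 without 2). The last of the positive pairs past the threshold, beside the one of Dcx, was Calb2 with Neurod1 (r = 0.56, rho = 0.55, permutation p = 0.0015, adjusted p = 0.0069, r = 0.48 without 2). Dcx did not follow Sox11 (r = 0.34, rho = 0.39, permutation p = 0.069, adjusted p = 0.15, r = 0.38 without 2), Igfbpl1 (r = 0.17, rho = 0.23, permutation p = 0.39, adjusted p = 0.53, r = 0.35 without 2) or Mki67 (r = 0.27, rho = 0.29, permutation p = 0.15, adjusted p = 0.27, r = 0.39 without 2). Its relation past the threshold by Pearson r was with Calb2 (r = 0.51, rho = 0.51, permutation p = 0.0040, adjusted p = 0.015, r = 0.38 without 2). By rank, Dcx with Top2a (rho = 0.49, permutation p = 0.0080, adjusted p = 0.022) and Neurod1 with Draxin (rho = 0.46, permutation p = 0.012, adjusted p = 0.032) passed as well, while their r of 0.42 and 0.37 did not (adjusted permutation p = 0.064 and 0.11). Top2a and Mki67, both used as markers of dividing cells, had r = 0.40 (rho = 0.43, permutation p = 0.031, adjusted p = 0.083, r = 0.26 without 2). Counts of 27 to 91 Top2a reads per hippocampus library limit that value. The negative pair was Calb2 and Sox4 (r = -0.48, rho = -0.54, permutation p = 0.0099, adjusted p = 0.032, r = -0.55 without 2), which was -0.43 with an adjusted p of 0.071 without the libraries with high markers.

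**Figure D4:**
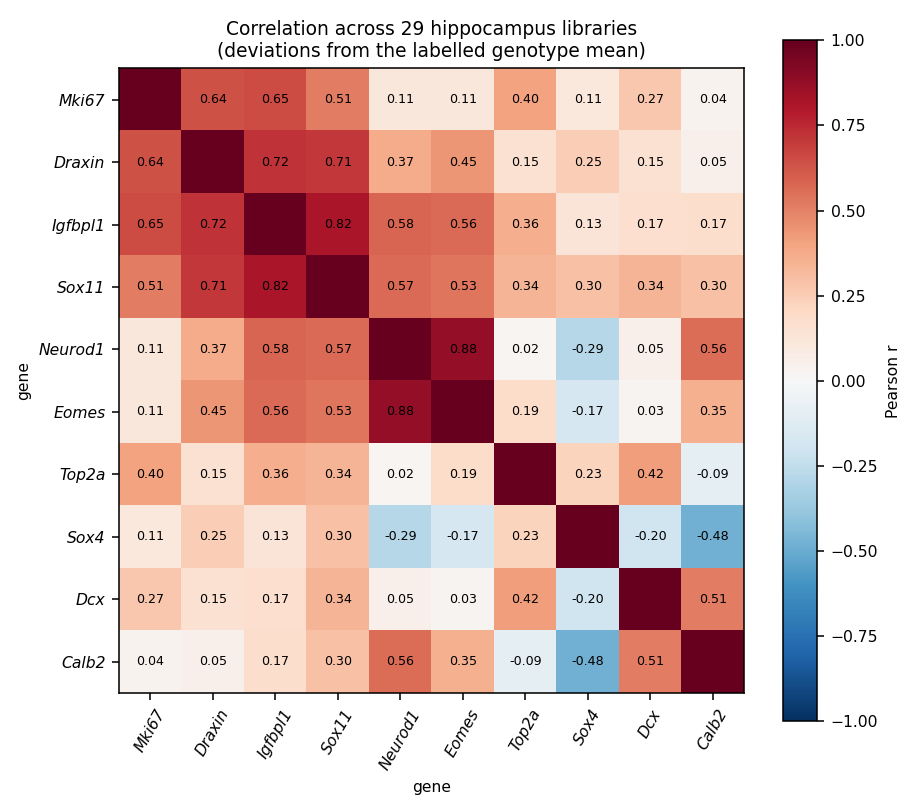
Pearson r between the genes across 29 hippocampus libraries, after the mean of the labelled genotype was removed, on a colour scale from -1 to 1. Values among Mki67, Draxin, Igfbpl1 and Sox11 lie between 0.51 and 0.82, Neurod1 with Eomes is the strongest pair and both correlate with Igfbpl1 and Sox11 (0.53 to 0.58), and Calb2 and Sox4 correlate negatively (-0.48). The share of all gene pairs with such values was not counted.

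The 250 bases before the start sites of Sox11 (chr12:27342719-27342968) and Draxin (chr4:148130699-148130948), 2 genes that varied together, are shown with matches to the E box CANNTG in capitals (RefSeq, build GRCm38.p6, both on the minus strand, both strands searched). The E box is the letter pattern that basic helix-loop-helix factors such as Neurod1 bind.
Sox11: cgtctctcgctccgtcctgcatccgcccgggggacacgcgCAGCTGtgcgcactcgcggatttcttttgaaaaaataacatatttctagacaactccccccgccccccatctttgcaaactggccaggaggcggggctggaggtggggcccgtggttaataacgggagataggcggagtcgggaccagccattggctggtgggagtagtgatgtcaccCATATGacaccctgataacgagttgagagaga
Draxin: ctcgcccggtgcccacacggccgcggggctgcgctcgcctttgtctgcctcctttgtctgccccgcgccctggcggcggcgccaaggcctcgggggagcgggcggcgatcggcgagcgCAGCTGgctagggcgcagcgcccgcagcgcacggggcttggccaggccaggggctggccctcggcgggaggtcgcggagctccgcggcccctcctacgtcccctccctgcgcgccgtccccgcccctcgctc
Sox11 holds 2 matches and Draxin 1, and 66.2% of the 32851 RefSeq windows hold at least 1, so the match does not set them apart. Sequence was at hand for 8 of the 10 genes.

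The same deviations were compared with the mean log2 CPM of 20 marker lists, 200 relations in all, of which 24 passed after adjustment, 11 positive and 13 negative. How many of all genes would pass with these lists was not counted. With mature granule cell genes, Igfbpl1 had r = 0.79 (rho = 0.88, permutation p = 1e-05, adjusted p = 0.0010, r = 0.79 without 2), Mki67 r = 0.73 (rho = 0.77, permutation p = 2e-05, adjusted p = 0.0010, r = 0.74 without 2), Sox11 r = 0.72 (rho = 0.83, permutation p = 2e-05, adjusted p = 0.0010, r = 0.80 without 2) and Draxin r = 0.64 (rho = 0.71, permutation p = 0.00013, adjusted p = 0.0024, r = 0.75 without 2). Libraries with more granule cell RNA had more of these 4 genes. The summed granule list spanned 1207 to 2400 CPM over hippocampus libraries, lowest in Mrpl40 het replicate 5 and wild-type replicate 8. The part of the dissection in this was not tested. With the level of the granule list as a covariate, again 0 of 10 genes passed in each hippocampus genotype comparison. Dcx showed no such relation (r = -0.03, rho = 0.21, permutation p = 0.87, adjusted p = 0.92), although without the 2 farthest libraries, one of them wild-type replicate 8, r was 0.51. Dcx went with the 18 immature neuron genes (r = 0.58, rho = 0.51, permutation p = 0.0016, adjusted p = 0.016), which was 0.33 without the 2 farthest libraries. It also ran against CA pyramidal and microglial genes, as given below. With the granule list, Neurod1 had r = 0.47 (rho = 0.66, permutation p = 0.010, adjusted p = 0.065, r = 0.37 without 2), and 0.78 without the libraries with high markers. Eomes had r = 0.43 (rho = 0.65, permutation p = 0.022, adjusted p = 0.10, r = 0.44 without 2), and 0.68 without those libraries. By rank both passed, with an adjusted permutation p of 0.0031 for Neurod1 and 0.0033 for Eomes. With the genes of cell division and DNA replication, Sox11 had r = 0.55 (rho = 0.55, permutation p = 0.0018, adjusted p = 0.017, r = 0.55 without 2). Mki67 had r = 0.52 with them (rho = 0.44, permutation p = 0.0041, adjusted p = 0.035, r = 0.33 without 2).

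Calb2 went with a different axis. Against 10 genes of CA pyramidal neurons it had r = -0.78 (rho = -0.78, permutation p = 1e-05, adjusted p = 0.0010, r = -0.72 without 2), and against mature granule cell genes r = -0.03 (rho = -0.01, permutation p = 0.89, adjusted p = 0.93, r = 0.01 without 2). The double het library with the lowest Calb2, replicate 5, had the highest sum of CA pyramidal genes (875.5 CPM, median 474.5 CPM over hippocampus libraries). Over cortex libraries the median sum was 483.1 CPM. In wild type, 6 of these 10 genes were higher in hippocampus and 2 lower, and their mean log2 CPM was 4.68 in hippocampus and 3.27 in cortex. How far the list follows the share of pyramidal cells was not tested. Dcx (r = -0.59, rho = -0.66, permutation p = 0.00056, adjusted p = 0.0074, r = -0.48 without 2) and Neurod1 (r = -0.66, rho = -0.63, permutation p = 8e-05, adjusted p = 0.0018, r = -0.62 without 2) also ran against CA pyramidal genes, and Sox4 ran with them (r = 0.59, rho = 0.52, permutation p = 0.00089, adjusted p = 0.010, r = 0.51 without 2). Genes listed for neuroblasts of the subventricular zone ran against Igfbpl1 (r = -0.70, rho = -0.69, permutation p = 3e-05, adjusted p = 0.0012, r = -0.65 without 2), Draxin (r = -0.68, rho = -0.68, permutation p = 6e-05, adjusted p = 0.0018, r = -0.65 without 2), Sox11 (r = -0.66, rho = -0.68, permutation p = 0.00013, adjusted p = 0.0024, r = -0.58 without 2) and Mki67 (r = -0.60, rho = -0.60, permutation p = 0.00053, adjusted p = 0.0074, r = -0.57 without 2). Most of that list are Dlx genes, which cortical and hippocampal interneurons also express. Draxin also ran against genes of interneurons that can hold calretinin (r = -0.51, rho = -0.44, permutation p = 0.0044, adjusted p = 0.037, r = -0.43 without 2). Neurod1 and Eomes went with cerebellar genes over all libraries (Neurod1 r = 0.68, rho = 0.50, permutation p = 0.00019, adjusted p = 0.0029, r = 0.38 without 2; Eomes r = 0.66, rho = 0.47, permutation p = 7e-05, adjusted p = 0.0018, r = 0.39 without 2), and r was 0.23 and 0.17 without the 3 libraries with high markers. Against oligodendrocyte precursor genes Neurod1 had r = -0.66 (rho = -0.62, permutation p = 7e-05, adjusted p = 0.0018, r = -0.64 without 2) and Eomes r = -0.64 (rho = -0.63, permutation p = 0.00016, adjusted p = 0.0027, r = -0.63 without 2). Igfbpl1 had r = -0.57 with them (permutation p = 0.0016, adjusted p = 0.016). Against microglial genes Calb2 had r = -0.61 (permutation p = 0.00059, adjusted p = 0.0074) and Dcx r = -0.53 (permutation p = 0.0028, adjusted p = 0.026). Neurod1 went with genes of reelin-making Cajal-Retzius cells (r = 0.60, permutation p = 0.0016, adjusted p = 0.016), and r was 0.23 without the libraries with high markers.

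**Figure D5:**
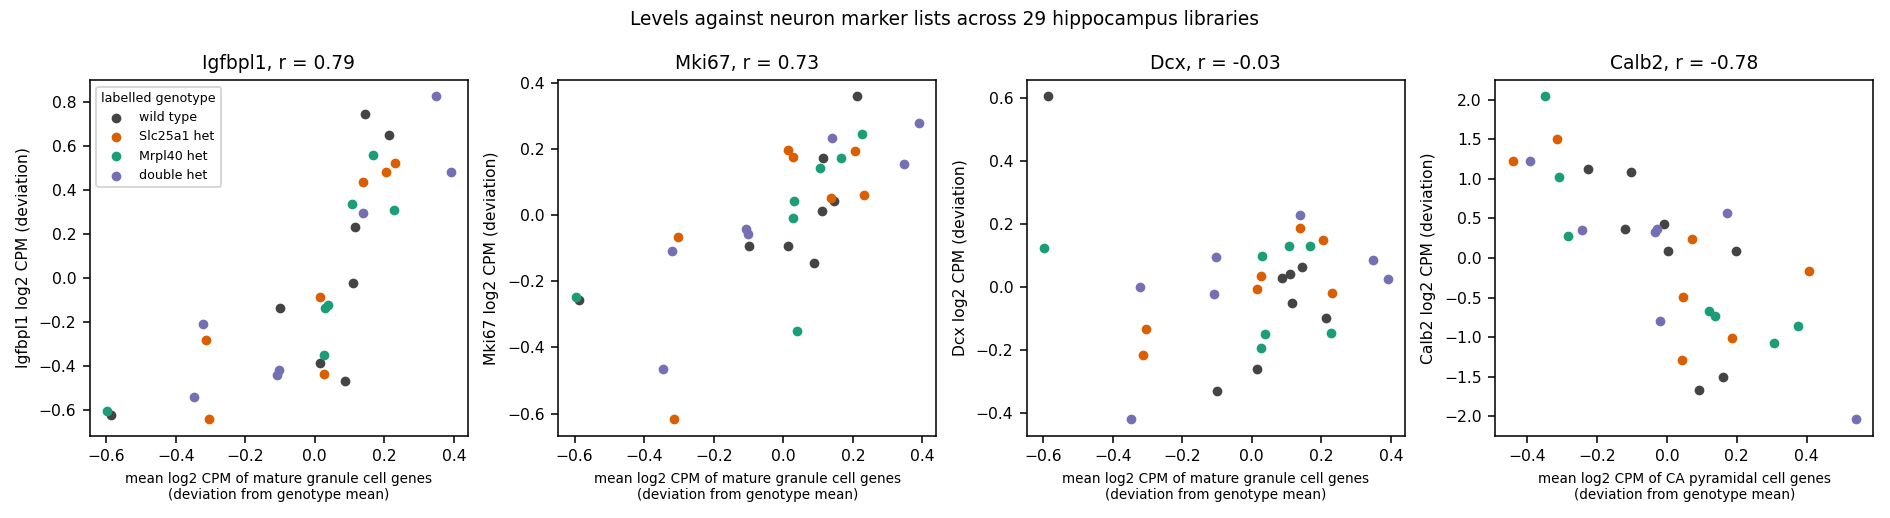
Deviation of a gene's log2 CPM from its labelled genotype mean (vertical) against that of the mean log2 CPM of a marker list (horizontal) in 29 hippocampus libraries, coloured by genotype. Igfbpl1 and Mki67 rise with mature granule cell genes, Dcx shows no trend with them over all libraries, with 1 wild-type library (replicate 8) far above the rest at the left, and Calb2 falls as CA pyramidal genes rise.

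Whether an animal with a high level in cortex also had one in hippocampus was asked in the 29 animals with both tissues, as 10 relations. Sox11 correlated between the tissues (r = 0.56, rho = 0.53, permutation p = 0.0015, adjusted p = 0.015, r = 0.50 without the 2 farthest animals). For the other genes r lay between -0.03 (Sox4) and 0.40 (Mki67, permutation p = 0.033, adjusted p = 0.16, r = 0.44 without 2), and none passed by Pearson r. By rank, Mki67 also passed (rho = 0.56, permutation p = 0.0018, adjusted p = 0.018). Without the animals of the 3 libraries with high markers, Sox11 (r = 0.56, permutation p = 0.0029, adjusted p = 0.029), Mki67 (r = 0.51, permutation p = 0.0071, adjusted p = 0.036) and Eomes (r = 0.49, permutation p = 0.012, adjusted p = 0.039) passed over 26 animals. The Eomes value rests on cortex levels of 0 to 6 reads.

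Across the same 29 libraries, the genes most like each of the 10 were sought, up to 3 for each, among 13714 genes by Pearson r of the deviations, as a description without a test. For Sox11 these were Thoc2 (r = 0.92), Cers4 (0.91) and Mex3a (0.90), and for Igfbpl1 Il1r1 (0.92), Npnt (0.91) and Sh3gl1 (0.88). Mex3a is on the list of immature neuron genes and Npnt on that of mature granule cells. For Calb2 they were Car10 (0.93), Ntn5 (0.93) and Col12a1 (0.91), with r of 0.90 to 0.93 without the libraries with high markers. Dcx was most like Slc4a10 (0.85), Rgs17 (0.80) and Pdk1 (0.79). Neurod1 and Eomes shared Il20rb (0.82 and 0.80) and Trabd (0.80 and 0.81), with Myt1 (0.82) the other gene for Neurod1 and Tedc2 (0.77) for Eomes. Without the libraries with high markers these were lower, at 0.74 and 0.73 for Il20rb, 0.78 and 0.69 for Trabd, and 0.76 for both Myt1 and Tedc2. The other genes were nearest to Ermp1 (0.83), Dock10 (0.80) and Vwa3b (0.79) for Mki67, with lower r for Draxin (Tyk2 0.79, Map3k4 0.78, Edc4 0.78), Sox4 (Arhgap12 0.74, Tmeff1 0.74, Tfdp2 0.74) and Top2a (Pik3c2a 0.72, Chuk 0.72). The libraries share depth and dissection, so likeness here says nothing of shared control.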

How the data were processed

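The authors deposited 1 table of raw counts with a column for each of 59 libraries, beside a table of normalized counts (a signal with no unit of its own, deposited by the authors). The libraries were made from poly(A) RNA with a directional kit and sequenced in pairs, per the labels' protocols. FastQC, HISAT2, featureCounts, DESeq2 and the builds mm39 and GRCm39 are named per the submitters' processing notes, with no versions. Columns were matched to samples by their titles, and groups are those on the labels.

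Counts were scaled to CPM with TMM factors over all 59 libraries (edgeR 4.0.16, R 4.3.3), and log2 CPM used a prior count of 2. Genes were kept by filterByExpr, which 7 of the 10 genes passed in cortex and 10 in hippocampus. Genotypes were compared within a tissue by edgeR's quasi-likelihood test with all 4 genotypes in the fit. Tissues were compared with the animal as a block, since the labels give the same animal for both libraries. Deviations from the group mean correlated with a median r of 0.11 between tissues of the same animal (29 animals) and -0.01 between different animals. Replicate numbers of different genotypes are different animals. P-values were adjusted by Benjamini-Hochberg over all genes tested, with calls at 0.05. Standard errors are those of the log2 fold change, and intervals are 95%. Correlations used 100000 two-sided permutations. Levels per kb used the union of exons. DESeq2 1.42.0 was an alternative, and code was tested on simulated data. Replicates are separate animals by their numbers.

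The 10 genes, 20 marker lists and tests were chosen with earlier results of these data known. From the 6 lists named for neurogenesis, up to 3 genes with the smallest p among those called are named, with the 3 genes most like each of the 10 (mean log2 CPM of at least 0, predicted genes left out). One gene that this rule names is not reported here. Leaving out wild-type hippocampus replicate 8, the marker list correlations and the granule list as a covariate were chosen after seeing the data. Promoter windows come from RefSeq on GRCm38.p6, another build than that of the counts, so no gene coordinates are given for the counts.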

Additional observations from a re-analysis of the deposited data

Results flagged for a closer look

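In 7 of 80 groups (a gene in a tissue and labelled genotype) 1 library stood apart from the others by Dixon's criterion, 4 in hippocampus and 3 in cortex, and chance flags about 1 in 20 groups. In hippocampus, Dcx reached 24.95 CPM in wild-type replicate 8 (nearest 17.11 CPM), the library with the highest neocortex marker level. Slc25a1 het replicate 3, the library with cerebellar genes, had the highest Neurod1 of its group (97.31 CPM, nearest 61.22 CPM) and the lowest Mki67 (2.904 CPM, nearest 4.295 CPM). Calb2 reached 69.35 CPM in Mrpl40 het replicate 6 (nearest 34.18 CPM), in a group whose lowest library had 7.89 CPM. In cortex, double het replicate 6 had the highest Sox11 (25.16 CPM, nearest 19.65 CPM) and the highest Mki67 (0.9306 CPM, nearest 0.5781 CPM) of its group. Mki67 was lowest in Mrpl40 het replicate 4 (0.4687 CPM, nearest 0.7249 CPM). The cortex values of Mki67 rest on 26 reads and 14 reads.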

How the results depend on the processing

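In 141 recomputations, the counts among the 10 genes that passed in the tissue, genotype and correlation comparisons stayed within 1.5 times. For genotypes that count was 0: no genotype comparison called any of the 10 genes under DESeq2, its size factors, no filter, only the compared genotypes, the replicate block or any left-out libraries. Counts over all genes moved more. For double het against wild type in cortex they were 14 in the main fit, 111 by the DESeq2 Wald test and 2 without the 6 animals with Slc25a1 against the label. The count of genes that correlated between tissues was 3 in place of 1 without the libraries with high markers. Of single values, 706 kept direction and call. Without the animal block (no replicate block), Calb2 in Mrpl40 het passed between tissues (log2 1.25, adjusted p = 0.010), and the block changed no other call. The Calb2 and Sox4 correlation did not pass without the libraries with high markers (-0.43). In 21 cases, all genotype differences that did not pass, the sign changed, and the cause was not tested. With the replicate number as a block, which does not mark shared animals (median r of same-numbered libraries 0.13 in cortex and 0.04 in hippocampus), Calb2 in Slc25a1 het became 0.0022 in cortex and 0.17 in hippocampus, Dcx 0.0057 in Mrpl40 het and 0.055 in double het, and Igfbpl1 0.033 in Slc25a1 het, these in hippocampus. Without a filter Calb2 in Slc25a1 het hippocampus became 0.0050. With the granule list as a covariate it was 0.023, and Sox11 there -0.046. Without wild-type hippocampus replicate 8, Calb2 in Slc25a1 het became 0.17, Dcx 0.0011 in Mrpl40 het and 0.052 in double het, and Mki67 in Mrpl40 het -0.016. Without the 6 animals with Slc25a1 against the label, hippocampus values became 0.0028 (Eomes, double het), 0.24 and 0.17 (Igfbpl1, Slc25a1 het and double het), 0.030 (Mki67, double het) and 0.011 (Neurod1, Mrpl40 het), and cortex values of double het -0.074 (Sox11) and 0.0054 (Sox4). Without the libraries with high markers, Neurod1 in Slc25a1 het became -0.0012 and Sox4 in double het 0.0014 in hippocampus. Depth limits Eomes and Igfbpl1 in cortex, with 36 and 56 reads over 30 libraries.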

Other observations

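Other cell types differed between the tissues as well, in lists read beside the 10 genes. In wild type, 5 of 6 genes of Cajal-Retzius cells, the reelin-making cells at the hippocampal fissure and brain surface, were higher in hippocampus and 1 was lower, with a median log2 fold change of 4.31. Trp73 was higher by 3.79 ± 0.18 and Reln, which interneurons also make, was lower (-0.29 ± 0.08). Both genes are named after their values were seen. Of 4 mossy cell genes 3 were higher and 1 lower, and of 8 genes of interneurons that can hold calretinin 3 were higher and 4 lower. Among the higher interneuron genes is Prox1 (4.30 ± 0.12), which is also on the granule cell list. Among 8 genes listed for neuroblasts of the ventricle wall, most of them Dlx genes that cortical and hippocampal interneurons also express, 1 was higher and 5 were lower (median -0.60).

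In wild type again, of 10 CA pyramidal genes 6 were higher and 2 lower, and all 7 tested neocortex genes were lower (median -2.64). Oligodendrocyte precursor genes were higher for 4 of 10 and lower for 0. Microglial genes (0 higher and 0 lower of 10) and ependymal genes (0 and 0 of 4) had no calls by edgeR in wild type, with 1 gene in each list at an unadjusted p under 0.05, and endothelial and pericyte genes had 1 lower of 10. For the Slc25a1, Mrpl40 and double het groups, microglial genes were higher in hippocampus for 5, 4 and 6 of 10 and lower for 0, and ependymal genes were higher for 2, 2 and 1 of 4 and lower for 1, 0 and 1. The tissue difference of a genotype's effect passed by edgeR for 0 of these genes in each het group, with 1, 0 and 2 microglial and 0, 1 and 0 ependymal genes at an unadjusted p under 0.05. In wild type, choroid plexus and meningeal genes were higher for 2 of 7 and 2 of 8, cerebellar genes higher for 1 of 10 and lower for 2, and thalamus genes 3 and 3 of 8. The higher cerebellar gene, Calb1 (0.36 ± 0.13), and Ntng1 among the higher thalamus genes are also on the granule cell list. Over all genotype comparisons 1 gene of the 20 lists passed, the complement gene C1qa of the microglia list, lower in double het cortex (-0.31 ± 0.06, adjusted p = 0.026, edgeR).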
